A study of Mus musculus with 4 samples.

Results

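The genes described here encode the constitutive proteasome of mouse muscle: the subunits of its core and of its regulatory cap, the factors that assemble it and its activators. They were taken as every probe set whose only platform gene symbol was Psma, Psmb, Psmc, Psmd, Psme, Psmf or Psmg with a number and nothing after it. Psmb8, Psmb9 and Psmb10, the inducible subunits of immune cells, were left out. This gave 53 probe sets for 41 genes, among 12422 probe sets other than controls and 8251 genes with a symbol of their own. By role there were 7 alpha ring genes, 7 beta ring genes, 6 ATPase genes, 3 other base genes, 8 lid genes, 7 assembly factor genes and 3 activator genes. Of the 45 protein-coding mouse genes that carry such a name, Psma8, Psmb11, Psme2 and Psmf1 had no probe set of their own, and 2 probe sets that name Psme2 together with another gene were not used. Psmc3ip and Psme3ip1 only begin like a subunit name and were not members.

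RNA came from gastrocnemius, a calf muscle, and was hybridized to Affymetrix MG-U74Av2 arrays with 1 array per group. Each array held 1 pool made from the muscles of 10 mice. The groups were intact mice, adrenalectomized mice examined 1 week after surgery, and adrenalectomized mice given an intraperitoneal dose of 0.1 mg cortisol either 3 h or 24 h earlier. The interval from surgery was stated for the adrenalectomized group alone, and the labels gave no strain, sex or age and no injected control. The surgery was therefore shared by all groups except the intact one, and the injection itself came with the hormone. No test was possible, and each difference set 1 pool against another. Each array also ran in its own fluidics module, 4 in all, and what a module, a pool and a group each add cannot be told apart.

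The proteasome is the barrel-shaped protease that degrades proteins tagged with ubiquitin. Its core is made of stacked rings of alpha and beta subunits, and the catalytic sites sit inside, on 3 of the beta subunits. A cap at the end of the barrel holds a ring of ATPases that unfold the substrate, scaffold and ubiquitin receptor subunits, and a lid that removes the ubiquitin chain. Dedicated chaperones build the core and the cap, and separate activators can take the place of the cap. Glucocorticoids in excess are known to cause muscle wasting, in which protein breakdown through ubiquitin and the proteasome takes part.

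All 7 muscle marker genes examined reached the floor of 100 on every array, below which a signal was treated as unmeasured, and their summed signal lay between 172910 and 180423. The arrays differed in markers of other cells and fibres. The sum over 8 slow fibre genes was 58850 in intact mice, 66958 after adrenalectomy, 19342 at 3 h and 17832 at 24 h. The sum over 10 epidermis and hair genes was 803, 836, 9416 and 2195 in the same order, and among them the basal keratins (Krt5, Krt14, Krt15) were below the floor throughout. The sum over 8 hepatocyte genes was 4116, 2875, 1301 and 963. The part of these differences in the results below was not tested.

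By the brightest probe set of each gene, transcripts of the proteasome itself read nearly the same on all 4 arrays. Of the 41 genes, 39 were at or above the floor on every array. The probe sets of the ATPase gene Psmc4 and of the scaffold gene Psmd2 were below it on all 4, with at most 93.4 for Psmc4 and 35.8 for Psmd2, so they gave only a bound and no ratio. For each of the 39 genes the highest array was set against the lowest. This fold had a median of 1.15 and lay under 1.25 for 30 genes, or 76.9%, whereas it lay under 1.25 for 43.2% of the 6416 genes that reached the floor on any array. The 29 measured subunits that make up the protease and its cap, called structural below, had a largest fold of 1.30 (Psmd13), and 26 of them stayed under 1.25. Of the 7 assembly factor genes, 1 stayed under 1.25 and 3 reached 1.5 or more, a size that 24.6% of all genes reached. All 7 were dim, and among the 4881 genes with a mean signal under 1000 the fold was under 1.25 for 35.1% and 1.5 or more for 29.5%.

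The members are bright, and bright probe sets differ less between arrays. Among the 1535 genes with a mean signal of at least 1000, a line drawn after the values were seen, the fold lay under 1.25 for 69.1%. Of the 26 structural genes above that line, 25 did, or 96.2%, and Psmb7 was the other one. The 39 genes were spread over the arrays: 10 (25.6%) were highest on the intact array, 8 (20.5%) after adrenalectomy, 11 (28.2%) at 3 h and 10 (25.6%) at 24 h. Of all 6416 genes, 22.3%, 23.4%, 22.1% and 32.2% were highest on these arrays in the same order. The lowest array was the intact one for 6 (15.4%), the adrenalectomized one for 7 (17.9%), the 3 h one for 11 (28.2%) and the 24 h one for 15 (38.5%). The shares over all genes were 24.7%, 21.4%, 28.4% and 25.5%. In muscle taken whole, fewer cells of a type and less RNA per cell cannot be told apart.

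**Figure D1:**
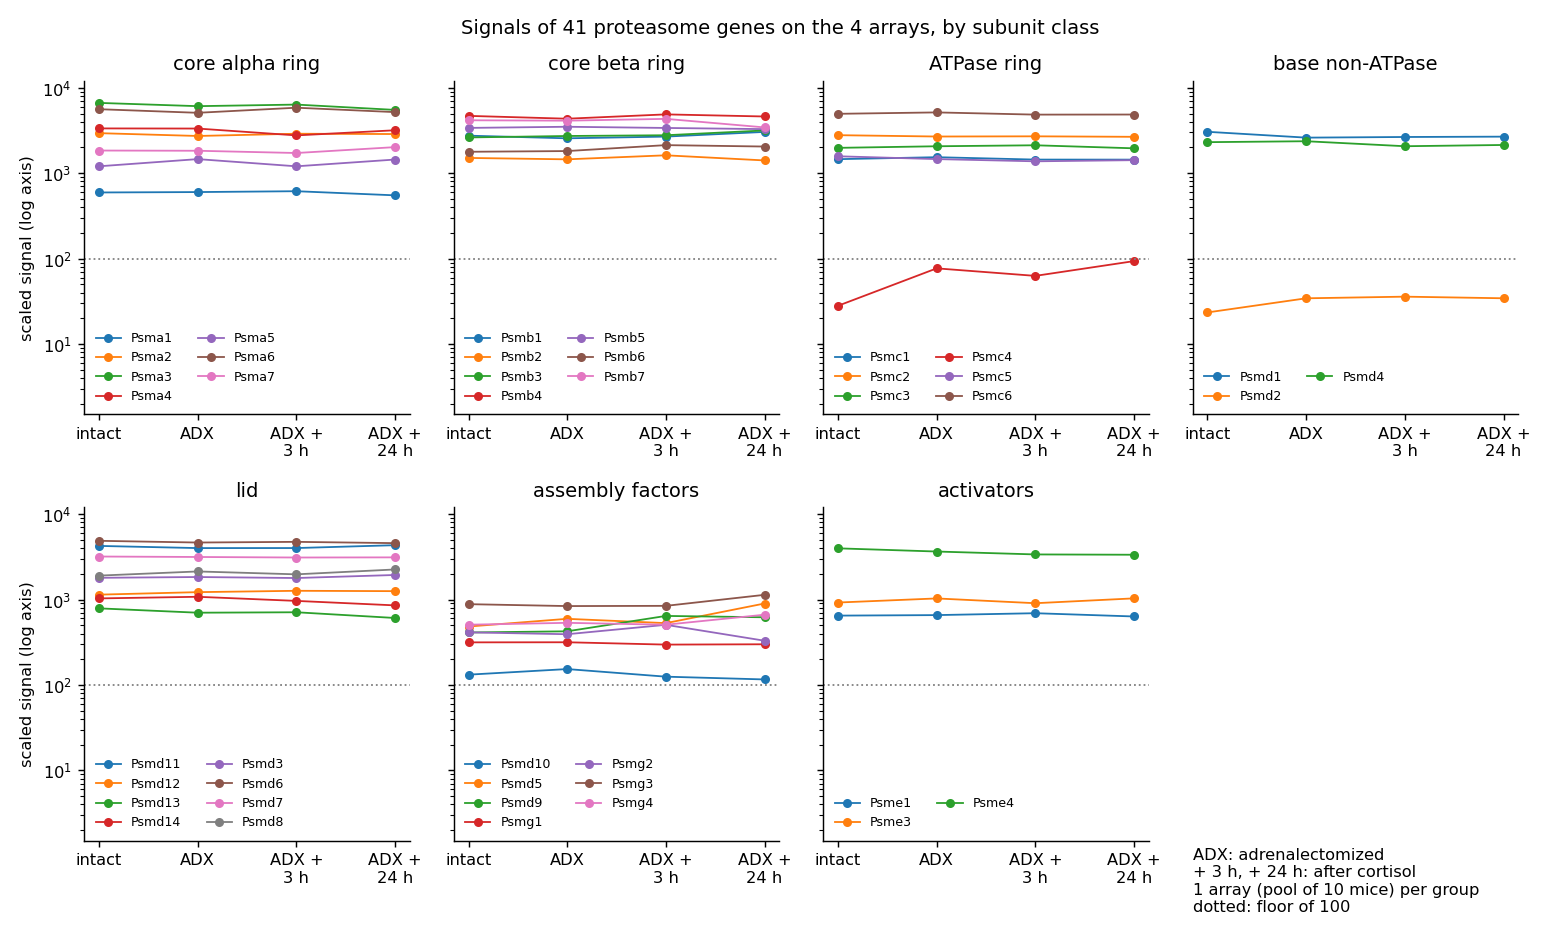
Scaled signals (log axis) of the 41 proteasome genes on the 4 arrays (1 array per group), 1 line per gene in a panel per subunit class, with the floor of 100 dotted. Lines of the core, ATPase, base and lid genes run nearly level, Psmc4 and Psmd2 lie under the floor, and several assembly factor lines bend at 3 h or 24 h.

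**Figure D2:**
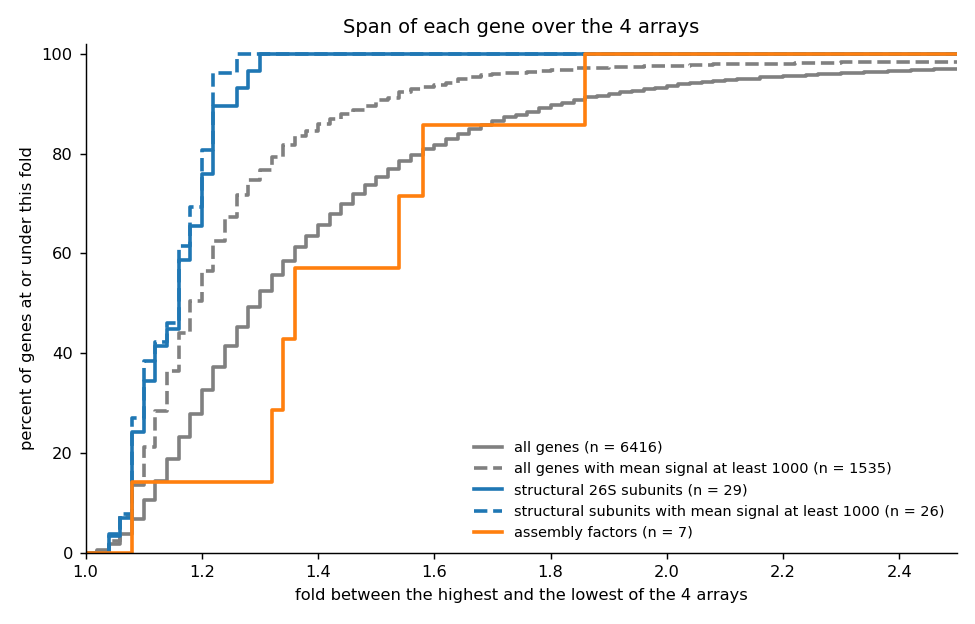
Percent of genes (vertical axis) whose highest array exceeds the lowest by at most the fold on the horizontal axis. Each gene is shown by its brightest probe set. The 29 structural subunits all lie at or under 1.30-fold, while the 7 assembly factor genes reach 1.86-fold, the value of Psmd5.

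Removal of the adrenals was accompanied by little difference in proteasome transcripts. The median log2 ratio of the 39 genes, adrenalectomized over intact, was 0.00, against 0.01 for 6112 genes in all. All 39 differed by less than 1.25-fold, as did 79.9% of all genes. None reached 1.5-fold, a size reached by 4.91% of all genes. Among the 1535 genes with a mean signal of at least 1000, 92.8% lay within 1.25-fold, as did all 27 such members. Of those 1535 genes, 11 were higher and 9 lower by 1.5-fold or more. Signals were higher after adrenalectomy for 20 members and lower for 19, and 52% of all genes were higher. The largest ratios were those of the assembly factor gene Psmd5 (0.30), the alpha ring gene Psma5 (0.28) and, on the lower side, the scaffold gene Psmd1 (-0.23).

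At 3 h after cortisol the structural subunits again read close to the adrenalectomized array, and the gene that stood farthest from it was the assembly factor gene Psmd9. The median log2 ratio to the adrenalectomized array was 0.01, against -0.02 for 6168 genes. Within 1.25-fold lay 37 of the 39 members and 73.9% of all genes. Past 1.5-fold lay 1 member, Psmd9, and 9.82% of all genes. Among the 1535 genes with a mean signal of at least 1000, 89.4% lay within 1.25-fold, as did all 27 such members. Of those 1535 genes, 34 were higher and 21 lower by 1.5-fold or more. Higher signals were found for 21 members and for 46.8% of all genes. All 29 structural genes were within 1.25-fold, between -0.28 and 0.23 on the log2 scale. Of the 7 assembly factor genes, 5 were, a share close to that of all genes.

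At 24 h the median log2 ratio to the same adrenalectomized array was -0.02, against 0.01 for 6228 genes. Within 1.25-fold lay 34 members and 71.8% of all genes. Past 1.5-fold lay 1 member, Psmd5, and 10% of all genes. Among the 1535 genes with a mean signal of at least 1000, 86.4% lay within 1.25-fold, as did all 27 such members. Of those 1535 genes, 13 were higher and 35 lower by 1.5-fold or more. Higher signals were found for 17 members and for 51.4% of all genes. Of the 29 structural genes, 28 were within 1.25-fold, and the exception was the lid gene Psmd14.

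Ratios this close to 0 take their sign from the scaling. An alternative scaling used ribosomal protein probe sets, averaged on the log2 scale without the floor. Under the scaling of the report, the 24, 25 and 26 ribosomal protein genes compared had medians of 0.00, 0.12 and 0.05 in the 3 main comparisons. With the arrays scaled to ribosomal protein probe sets instead, the median of all genes moved to 0.13, -0.20 and -0.28 in these comparisons and that of the members to 0.12, -0.18 and -0.31. Higher signals were then found for 34, 4 and 4 of the 39 members and for 74.4%, 21.0% and 18.1% of all genes. The members shifted with the rest of the array, and their distance from the median of all genes stayed between -0.03 and 0.02. With this scaling the members past 1.5-fold at 24 h were Psmd10 and the structural lid gene Psmd14, both lower than after adrenalectomy, with log2 ratios of -0.70 and -0.63.

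**Figure D3:**
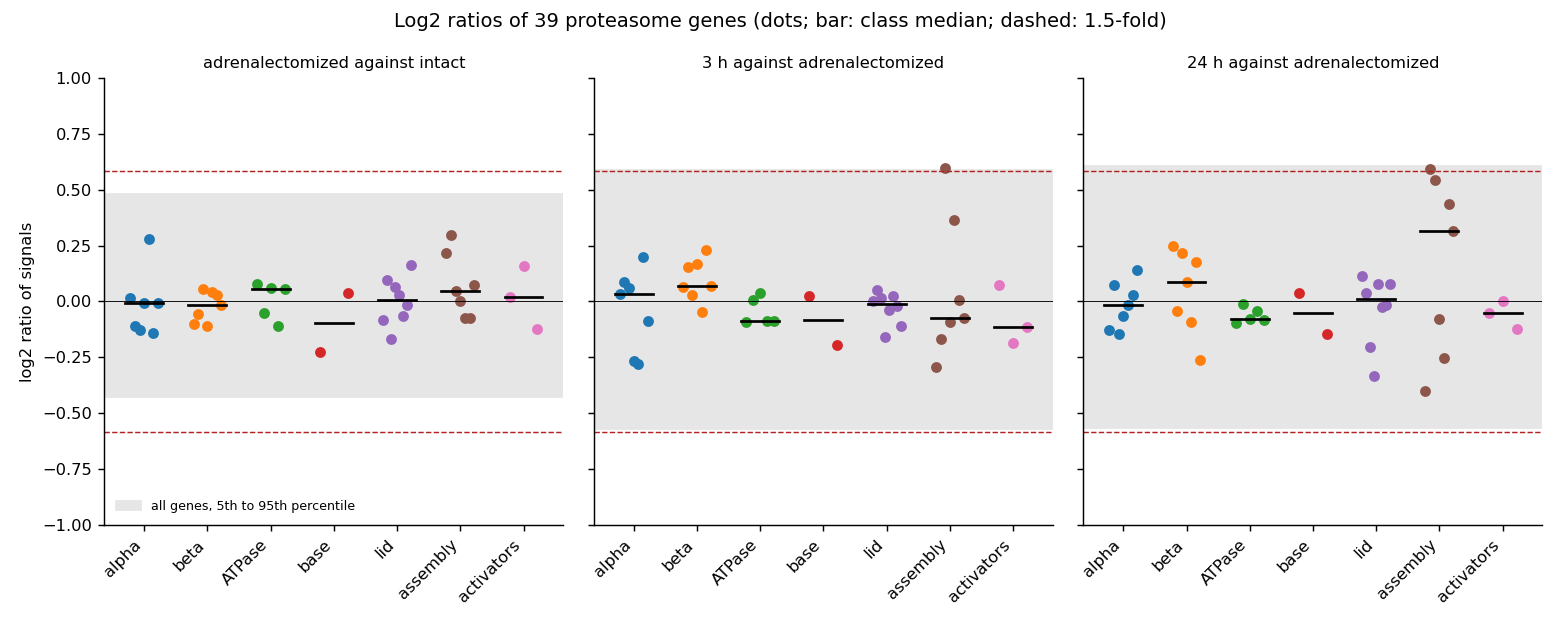
Log2 ratios of the 39 measured proteasome genes in the 3 main comparisons (1 dot per gene, bar at the class median, grey band from the 5th to the 95th percentile of all genes, dashed lines at 1.5-fold). Medians of the structural and activator classes lie close to 0, while that of the assembly factors is 0.32 at 24 h. Only assembly factor dots reach the upper dashed line, Psmd9 at 3 h and Psmd5 at 24 h.

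The spread of these ratios was set beside the error that the arrays show between probe sets. Where a gene had a second probe set, the SD of the difference between both log2 ratios, divided by the square root of 2, was 0.24 for adrenalectomized against intact, 0.28 for 3 h and 0.32 for 24 h against adrenalectomized. For 132 genes with both sets at 1000 or more it was 0.16, 0.16 and 0.21. The SD of the log2 ratios over the 26 bright structural genes was 0.11, 0.13 and 0.12 in the same order. The SD over structural subunits was thus below the SD between probe sets of 1 gene in all 3 comparisons, and the latter holds no variation between mice or pools.

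The alpha subunits form the outer rings of the core and its gate. Their median log2 ratios were -0.01 for adrenalectomized against intact, 0.03 for 3 h and -0.02 for 24 h against adrenalectomized, and all 7 stayed within 1.25-fold in each. Psma5 read 1205 in intact mice, 1462 after adrenalectomy, 1204 at 3 h and 1445 at 24 h. It was therefore low on the intact and 3 h arrays and high on the other pair, by at most 1.21-fold. Psma6 went the other way in both steps, with signals of 5615, 5095, 5845 and 5191. Psma4 read 3345, 3333, 2771 and 3182, which puts only the 3 h array low. Psma3 had its lowest signal at 24 h, with 5509 against 6094 after adrenalectomy, but its probe set carries a suffix for probes that other transcripts may share. The log2 ratio of Psma7 at 24 h, 0.14, was the highest of the ring. Psma1 and Psma2 each stayed within 1.12-fold over the 4 arrays.

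The beta subunits form the inner rings. Their median log2 ratios were -0.02, 0.07 and 0.09 in the 3 main comparisons. At 3 h 6 of the 7 were higher than after adrenalectomy, none by 1.25-fold, where 46.8% of all genes were higher. That sign depends on the settings, since the class median at 3 h ran from -0.12 to 0.11 over the alternatives. Psmb5 carries the chymotrypsin-like site of the constitutive core. Its brighter probe set read 3391 in intact mice, 3497 after adrenalectomy, 3387 at 3 h and 3281 at 24 h. The order of the arrays spans 1.07-fold.

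Its dimmer set read 489.5, 371.5, 520.5 and 557.1 and was lowest after adrenalectomy, with log2 ratios of 0.49 at 3 h and 0.58 at 24 h. The 2 sets of Psmb5 thus differed by 0.53 and 0.68 in these ratios. The error SD is no direct measure for such a difference, since its division by the square root of 2 makes it describe a single ratio. The brighter set has the suffix of shared probes and the dimmer one does not. Psmb6, the gene of the caspase-like subunit, read 1782, 1817, 2131 and 2052, so both arrays after cortisol were higher than both others, by 1.17-fold at 3 h and 1.13-fold at 24 h over adrenalectomized mice. Psmb7, the gene of the trypsin-like subunit, read 4166, 4122, 4328 and 3437. Only its 24 h array stood lower, by 1.20-fold against adrenalectomized mice and 1.26-fold against 3 h, again on a probe set with the suffix of shared probes.

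The other beta genes have no catalytic site in the mature core. Psmb3 read 2623, 2727, 2782 and 3165, with the 24 h array highest at 1.16-fold over adrenalectomized mice. Psmb1 was 1.19-fold higher at 24 h by its brightest set, while its second set, also above 1000, was 1.18-fold lower. The bright set of Psmb4, with the suffix of shared probes, had log2 ratios of 0.17 at 3 h and 0.09 at 24 h. A set close to the floor had -0.38 and 0.25. Psmb2 read 1509, 1453, 1620 and 1411.

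The ATPases Psmc1 to Psmc6 unfold the substrate and feed it into the core. The 5 measured genes varied least of all classes with at least 5 genes, with a median fold of 1.07 between highest and lowest array. Their median log2 ratios were 0.05, -0.09 and -0.08 in the main comparisons. At 24 h their log2 ratios to adrenalectomized mice ran from -0.09 for Psmc1 to -0.01 for Psmc2, all smaller in size than the error SD of 0.21 for bright genes, in a comparison where 51.4% of all genes were higher. With quantile normalization Psmc2 came to 0.03. Psmc6 read 4958, 5150, 4851 and 4863, and Psmc2 read 2787, 2688, 2702 and 2667. Psmc3 had 3 probe sets above the floor, each with a suffix in its name. The 2 bright ones had log2 ratios of 0.04 and -0.06 at 3 h and of -0.08 and -0.15 at 24 h, and the dim one read 441.9, 361.6, 510.1 and 297.7.

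Of the other base genes, the ubiquitin receptor gene Psmd4 read 2309, 2368, 2069 and 2140, so both arrays after cortisol were lower than both others. Its log2 ratios to adrenalectomized mice were -0.19 at 3 h and -0.15 at 24 h. The scaffold gene Psmd1 read 3053 in intact mice and 2609, 2654 and 2679 on the 3 arrays from adrenalectomized mice. The intact array was the highest for it by at most 1.17-fold.

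Lid genes had median log2 ratios of 0.01, -0.01 and 0.01. Psmd7, Psmd6 and Psmd3, which are structural lid subunits, stayed within 1.03-fold, 1.06-fold and 1.09-fold over the 4 arrays. Psmd14 encodes the deubiquitinase that cuts the chain from the substrate. It read 1031 in intact mice, 1077 after adrenalectomy, 964.1 at 3 h and 854.4 at 24 h, and its log2 ratio of -0.33 at 24 h was the lowest among structural genes. Psmd13 was also lowest at 24 h, with 788.4, 701.3, 709.6 and 608.2. Psmd8 was highest at 24 h, with 1906, 2133, 1973 and 2250. Psmd12 had log2 ratios of 0.10, 0.05 and 0.04, on a probe set with the suffix of shared probes. Psmd11 read 4246, 4004, 4008 and 4330 by its brightest set and between 1197 and 1229 by its second. The third set of Psmd11, with relaxed probe rules and signals between 135.3 and 255.9, had log2 ratios of -0.92 for adrenalectomized against intact and 0.73 for 24 h against adrenalectomized, which neither brighter set showed.

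**Figure D4:**
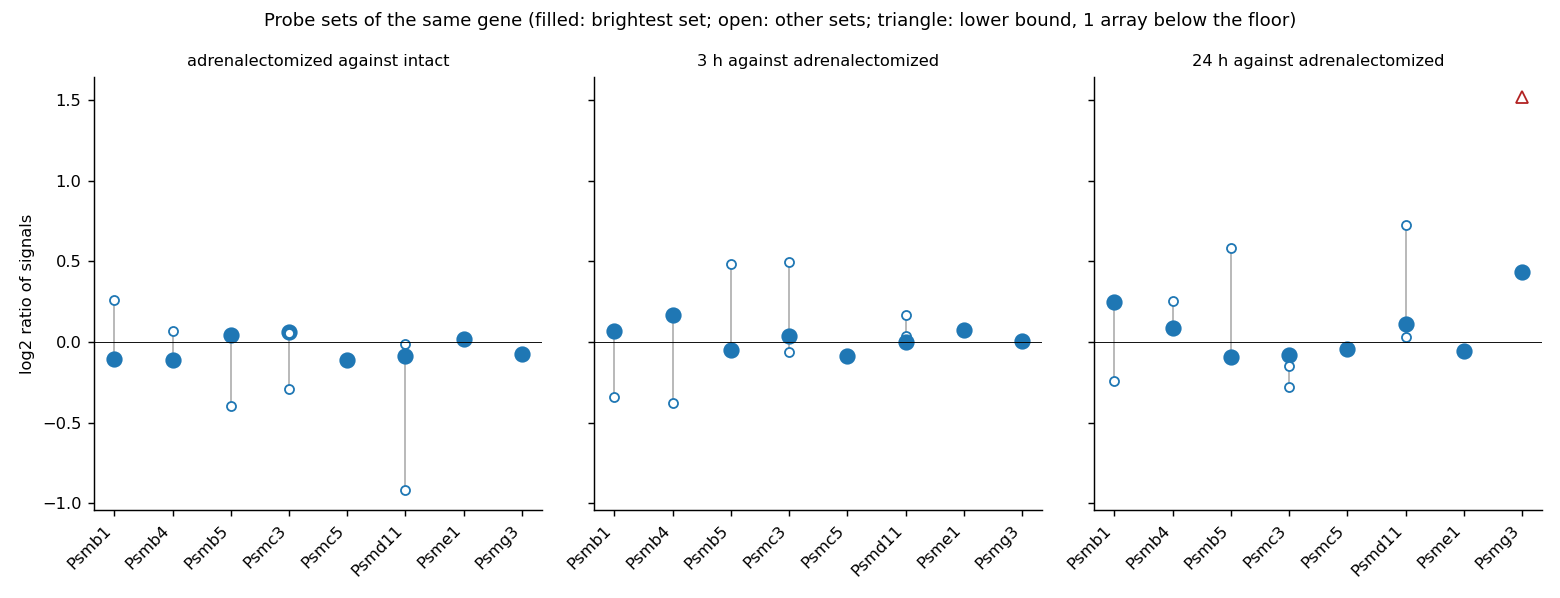
Log2 ratios of each probe set of the 8 members with more than 1 set, in the 3 main comparisons; filled dots are the brightest set, open dots other sets, and the triangle is a lower bound. The sets of Psmb1 and Psmb5 lie on opposite sides of 0 in all 3 comparisons, and both sets of Psmg3 lie above 0 at 24 h.

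Assembly factors were the members with the largest ratios. Their median log2 ratio was 0.05 for adrenalectomized against intact, -0.07 for 3 h and 0.32 for 24 h against adrenalectomized, and at 24 h the 7 genes ranged from -0.40 to 0.60. The median at 24 h depends on the settings: it was 0.02 with scaling to ribosomal protein probe sets, where the median of all genes was -0.28, and 0.12 without suffixed probe sets. None of the 7 had a mean signal of 1000, so the error SD over all genes is the one to set beside them. Psmd9, which encodes a chaperone of the ATPase base, read 411.5 in intact mice, 424.6 after adrenalectomy, 642.9 at 3 h and 619.9 at 24 h. Both arrays after cortisol were thus higher than both others, by 1.51-fold at 3 h and 1.46-fold at 24 h over adrenalectomized mice. Its only probe set was chosen under relaxed rules, as the suffix of its name shows.

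Psmd5 encodes another chaperone of the base. It read 483.1, 594.6, 529.4 and 898.6, so the 24 h array stood alone, 1.51-fold higher than the adrenalectomized array and 1.70-fold higher than the 3 h array. Psmg3 and Psmg4 encode partners in a chaperone of the core's alpha ring. Psmg3 read 882.9, 838.6, 843.5 and 1135 by its brighter set, which is 1.35-fold higher at 24 h than after adrenalectomy. This brighter set, like that of Psmd9, has the suffix of relaxed probe rules. The dimmer set of Psmg3 was below the floor on the other 3 arrays and read 287.1 at 24 h, at least 2.87-fold higher. Psmg4 read 507.4, 533.7, 507.2 and 664.4, with the 24 h array highest at 1.24-fold over adrenalectomized mice.

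Other assembly factors did not share this. Psmg1 and Psmg2 form the other chaperone of the alpha ring. Psmg1 lay between 296.7 and 316.1 on all arrays. Psmg2 read 413, 392.5, 505.9 and 329.4, highest at 3 h and lowest at 24 h, a 1.54-fold difference. Psmd10, which encodes the base chaperone gankyrin, read 131.9, 153.4, 125 and 116, close to the floor, with a log2 ratio of -0.40 at 24 h. Against the error SD of 0.32 for 24 h, the ratios of Psmd5 (0.60), Psmd9 (0.55), Psmg3 (0.44) and Psmd10 (-0.40) were larger. Those of Psmg4 (0.32, nearly a tie), Psmg2 (-0.25) and Psmg1 (-0.08) were not. Many genes pass this line: the ratios of all genes had an SD of 0.38, and 71.8% lay within 1.25-fold, a size close to the line. The error SD also pools bright and dim genes, and was 0.21 where both sets were bright. Psmd9 and Psmd5 stand at the edge of the 1.5-fold line: scaling to ribosomal protein probe sets put Psmd9 at 0.41 at 3 h and Psmd5 at 0.30 at 24 h, both still higher than after adrenalectomy and both short of it.

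**Figure D5:**
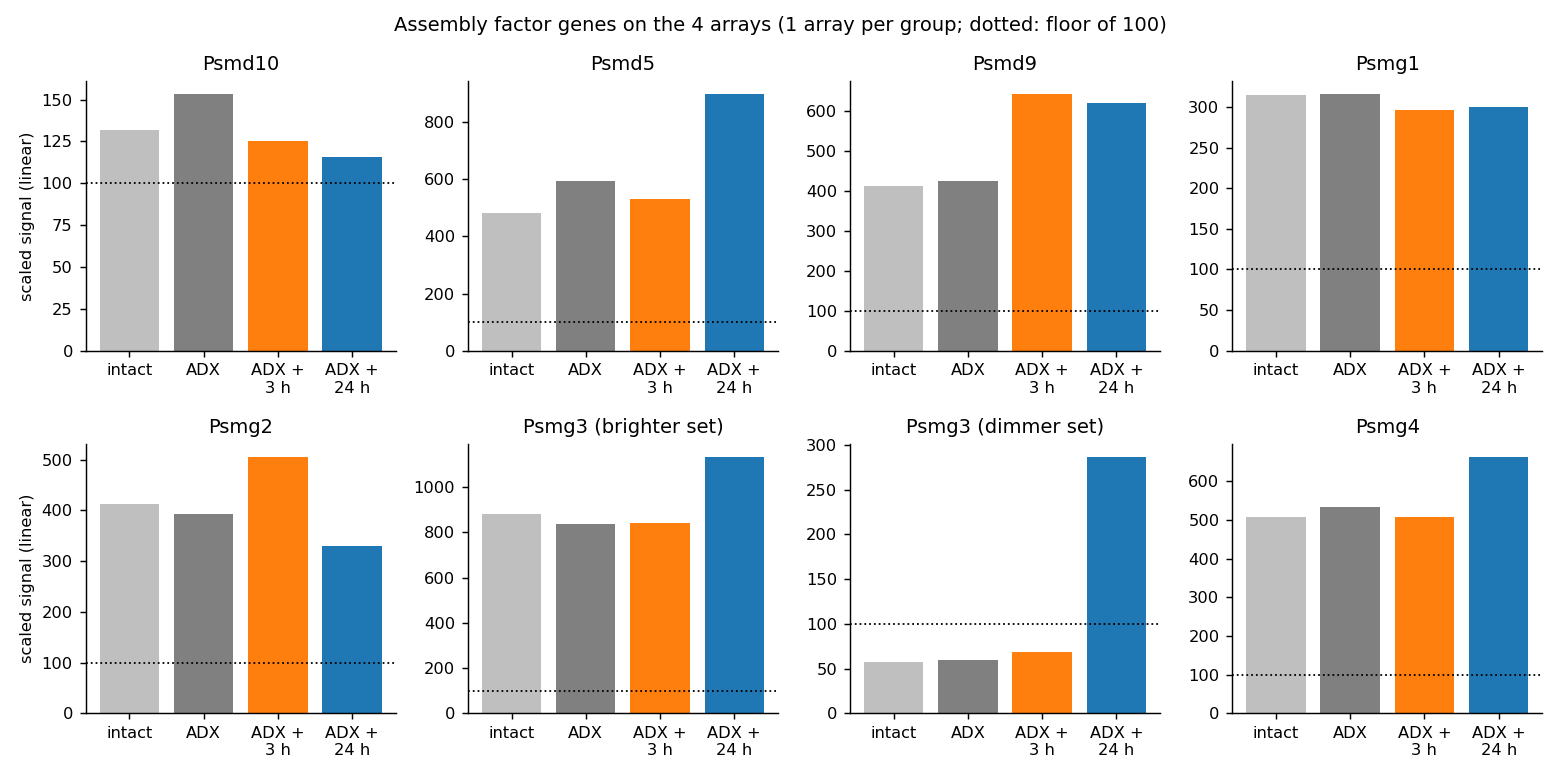
Scaled signals (linear axis from 0, a scale for each panel) of the 7 assembly factor genes on the 4 arrays, with both probe sets of Psmg3 and the floor of 100 dotted. Psmd9 is higher on both arrays after cortisol, while Psmd5, both Psmg3 sets and Psmg4 are highest at 24 h.

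Activators are alternative caps. Psme4, whose product is a large single-chain activator, read 3977, 3650, 3375 and 3346, with the intact array highest at 1.19-fold over the lowest. Psme3, of the nuclear activator, read 922.7, 1030, 905.7 and 1032, a pattern of low and high arrays like that of Psma5. Psme1, a subunit of the activator that interferon induces, stayed between 633.6 and 691.7. All 3 were within 1.25-fold in every main comparison.

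Between both arrays after cortisol, 24 h against 3 h, the median log2 ratio of the members was -0.01, against 0.03 for 6229 genes. Within 1.25-fold lay 34 of 39 members and 69.5% of all genes. Higher signals were found for 18 members and for 55.3% of all genes. Past 1.5-fold lay 2 members, Psmd5 higher and Psmg2 lower, where 11.6% of all genes did. Among the 1535 genes with a mean signal of at least 1000, 87.7% lay within 1.25-fold, as did 26 of 27 such members. Structural genes lay between -0.33, for Psmb7, and 0.26, for Psma5. Against intact mice the median of the 39 members was -0.02 at 3 h and -0.03 at 24 h.

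Among genes that work with the proteasome, 15 of 25 listed names had a probe set of their own, and none was 1.5-fold apart in a main comparison, where 4.91%, 9.82% and 10% of all genes were. At those shares a list this short would hold few such genes, so their absence says little about the list. Nfe2l1 encodes the transcription factor that drives proteasome genes when the protease is inhibited. It read 4872 in intact mice, 5023 after adrenalectomy, 4654 at 3 h and 4808 at 24 h, within 1.08-fold. Akirin2, whose product brings proteasomes into the nucleus, had the highest ratio of this list at 3 h, 0.50, with signals of 2129, 2370, 3354 and 2854 on a suffixed probe set. Pomp, the maturation factor of the core, had log2 ratios of -0.21, 0.24 and 0.01. Uchl5, a deubiquitinase of the cap, was 1.57-fold lower at 24 h than at 3 h.

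Of 35 listed names for ubiquitin and its conjugation, 21 had a probe set of their own and none was 1.5-fold apart in a main comparison. The shares over all genes were again 4.91%, 9.82% and 10%, and this list is also too short to read a difference from them. Ubb, a ubiquitin gene, was not among those 21. The list median was -0.05 for adrenalectomized against intact, 0.04 for 3 h and 0.07 for 24 h against adrenalectomized. The ubiquitin-conjugating enzyme gene Ube2d2a had the lowest ratio at 24 h, -0.51, and Ube2b, another such gene, read between 5737 and 6013 on the 4 arrays. The inducible catalytic genes Psmb8, Psmb9 and Psmb10 had log2 ratios of -0.45, -0.42 and -0.46 at 3 h and of 0.31, 0.65 and -0.09 at 24 h, so Psmb9 was past 1.5-fold at 24 h. The sum over 7 macrophage markers was 3620, 4125, 2958 and 3734 on the 4 arrays and that over 5 lymphocyte markers was 709, 382, 747 and 1238. The part of such cells in these 3 genes was not tested.

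Promoter windows, 250 bases before to 50 after the start site, were taken from RefSeq on GRCm38.p6 and matched 34 of the 41 genes with 36 windows. Psmb1, Psmb2, Psmb7, Psmc3, Psmd3, Psmd7 and Psmg2 were not in that table. The core of the antioxidant response element, TGACNNNGC, which factors of the Nfe2l1 family bind, was found on either strand in 6 of the 36 windows, or 16.7%, and in 12.4% of all 32851 windows. The full glucocorticoid response element, searched as AGAACA and its inverted repeat with 3 bases between them, was in 0 of the 36 and in 3 of all windows. The single arm AGAACA, on either strand and also inside every full element, was in 16.7% of the members' windows and in 19.0% of all. The box CCAAT was in 33.3% and 37.4%. The following 5 stretches show the matches to TGACNNNGC that lie before the start site, in capitals and 5′ to 3′ on the gene's strand, since they include the catalytic genes Psmb5 and Psmb6 and Psmd9, the assembly factor gene that read higher on both arrays after cortisol than on both others.
Psmb5, chr14:54618014-54618062, minus strand: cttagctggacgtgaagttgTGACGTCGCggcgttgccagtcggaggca
Psmb6, chr11:70525328-70525356, plus strand: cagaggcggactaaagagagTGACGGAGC
Psmd9, chr5:123228139-123228187, plus strand: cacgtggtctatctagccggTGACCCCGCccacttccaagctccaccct
Psmc6, chr14:45329577-45329625, plus strand: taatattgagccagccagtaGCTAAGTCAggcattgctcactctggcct
Psmd12, chr11:107479278-107479309, plus strand: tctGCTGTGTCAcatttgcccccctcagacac
In Psmc6 and Psmd12 the match is on the opposite strand. The sixth match, in Psme4, runs across the start site. At 3 h the log2 ratios of these genes were -0.05 for Psmb5, 0.23 for Psmb6, 0.60 for Psmd9, -0.09 for Psmc6, 0.05 for Psmd12 and -0.11 for Psme4, so genes with the match were found on both sides of 0. Psmd5, Psmg3 and Psmg4 had windows without it. A match of letters is no evidence of binding.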

How the data were processed

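Per the labels, the authors analysed the scanned images with MAS 5.0; the deposited table gives 1 intensity per probe set and array on a linear scale, already scaled. Instrument settings deposited with each array (other values: chip type, fluidics module) were read from the file headers. No replicate exists per the labels, so the number of arrays limits the precision. The build behind the array's probe design is not given in the sources used here, and GRCm38.p6 is that of the RefSeq tables used for symbols and promoters.

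Each array was scaled to a trimmed mean of 500 over 12422 probe sets (2% left out at each end), values under the floor, 100, were raised to it, and log2 ratios were taken. Of 10833 probe sets with 1 symbol, each gene was represented by the set with the highest mean signal. A gene entered a comparison when it reached the floor on at least 1 of both arrays. With 1 array a group no test was run, and the comparisons with adrenalectomized mice share that array. Symbols came from the platform annotation. All 53 member gene IDs had the same symbol in the GRCm38.p6 gene table.

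Named were members 1.5-fold or more apart, the highest and lowest gene of each class in a main comparison, Psmb5, Psmb6, Psmb7 and Psmd14, members whose probe sets differed by over 0.5 on the log2 scale, and of the context lists, genes 1.5-fold apart, the inducible subunit genes, Nfe2l1 and Ubb. Another item of this rule is not reported here. Other genes named were chosen after their values were seen. The members, classes, context lists and cell markers were chosen with earlier results of these data known. The calculation was tested on simulated data. Python 3.11.15, numpy 2.4.6 and pandas 2.3.3 were used. Alternatives changed the scaling, the floor and the choice of probe sets.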

Additional observations from a re-analysis of the deposited data

How the results depend on the processing

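No paired analysis was possible because each group had 1 array, and no replicate could be left out. Scaling to ribosomal protein probe sets averaged these sets without the floor. It took the members' medians to 0.12 in adrenalectomized against intact mice, -0.18 at 3 h, -0.31 at 24 h (both over adrenalectomized) and -0.11 in 24 h against 3 h, and the median of all genes to 0.13, -0.20, -0.28 and -0.07. Members minus all genes then came to -0.003, 0.021, -0.033 and -0.046, and under the scaling of the report to -0.005, 0.027, -0.025 and -0.045. With that scaling the count of members past 1.5-fold was 0 at 3 h and 2 at 24 h against adrenalectomized, and the 2 were Psmd10 (-0.70) and Psmd14 (-0.63), both lower. The assembly factor median at 24 h was 0.02 with it and 0.12 without suffixed sets, against 0.32 in the report. Under every other alternative the members' medians moved by less than 0.1. The count at 24 h against adrenalectomized was 0 with median scaling, 3 with the mean over all probe sets of a gene, 3 with every probe set on its own and 2 without suffixed probe sets. The mean over probe sets was taken before the floor was applied, so it also holds sets below the floor. At 3 h it was 2 with the mean over probe sets and 0 without suffixed sets, which leaves out Psmd9. For adrenalectomized against intact it was 1 with a floor of 50 and 1 with every probe set on its own. For 24 h against 3 h it was 5 with every probe set on its own and 4 without suffixed sets. Under the scaling of the report, with structural subunits alone, or with genes of a mean signal of at least 1000 (added after the values were seen), it was 0 at 3 h, 0 at 24 h and 0 for 24 h against 3 h. No class median of 0.1 or more in size under the scaling of the report changed sign. Ratios of single genes did. At 3 h that of Psmb4 ran from -0.62 to 0.19 over the alternatives. Its low end came from the mean over probe sets, which took in a set with signals of 28.4 after adrenalectomy and 8.99 at 3 h. The sets of Psmb4 above the floor had 0.17 and -0.38. At 24 h the range was -0.12 to 0.19 for Psmb6, -0.15 to 0.17 for Psma7 and -0.04 to 0.29 for Psmb1. The beta ring median at 24 h ran from -0.21 to 0.23. The log2 ratio of Psmd5 at 24 h ranged from 0.30 to 0.60, that of Psmd9 at 3 h from 0.41 to 0.62 and that of Psmg3 at 24 h from 0.14 to 1.52. Signal over background limits Psmd10, Psmc4 and Psmd2 most.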

Other observations

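The inducible catalytic genes were set beside the constitutive genes they replace, a comparison chosen after the values were seen. From 3 h to 24 h after cortisol the log2 ratio was 0.76 for Psmb8 and -0.05 for Psmb5, a difference of 0.80. It was 1.07 for Psmb9 and -0.05 for Psmb6, a difference of 1.12, and 0.37 for Psmb10 and -0.33 for Psmb7, a difference of 0.70. At 3 h against adrenalectomized mice the differences had the other sign, with -0.40, -0.65 and -0.53 in the same order. The 3 h array was the lowest for all 3 inducible genes. At 24 h against adrenalectomized mice the differences were smaller than from 3 h to 24 h, with 0.40, 0.47 and 0.17. For adrenalectomized against intact mice they were -0.03, 0.04 and 0.30. Psmb5 was taken by its brighter set, and its dimmer set had a log2 ratio of 0.49 at 3 h. The signals of Psmb9 were 158, 165, 124 and 259 on the intact, adrenalectomized, 3 h and 24 h arrays, close to the floor of 100. Each value rests on 1 array per group.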
